A study of Drosophila melanogaster with 6 samples.

Results

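The larval serum proteins and the fat body proteins of Drosophila melanogaster are described here in RNA from larval brains, over 6 genes of 14012 in the deposited tables. They are Lsp1alpha (CG2559), Lsp1beta (CG4178), Lsp1gamma (CG6821), Lsp2 (CG6806), Fbp1 (CG17285) and Fbp2 (CG3763), found by their CG numbers, with 7 of 21081 transcripts. The set was chosen by a model from the authors' group values of these same samples, which were known to differ between the groups. The differences below therefore describe the data and are not independent evidence, and the authors' p-values and q-values are given as deposited values.

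Brains of wandering larvae were pooled into 6 samples, 2 in each of 3 groups, and all larvae carried E347-GAL4, a driver that turns on UAS transgenes in the cells the series names E347 neurons. Control larvae were w, E347-GAL4/w1118 with no UAS transgene, in pools of 100 and 86 brains. Activation larvae were w, E347-GAL4/yw with UAS-NachBac on the third chromosome, in pools of 100 and 97 brains, and NachBac is a bacterial sodium channel that raises neuronal excitability. Ablation larvae were w, E347-GAL4/yw,UAS-ShiDN with a further UAS-ShiDN on the second chromosome, in pools of 100 and 91 brains, and ShiDN is dominant-negative shibire, a blocked form of fly dynamin. The series names this group ablation, and the labels give no measure of cell loss, so the name does not show here that E347 cells were gone. The X chromosome from the other parent thus came from w1118 in control and from yw in the other groups, so that parental background and transgene cannot be told apart. Nothing in the labels says how the pools relate to separate crosses or days, so deposited p-values cover only the spread between these pools.

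Each group has 1 FPKM value per transcript in each table. FPKM is a fragment count divided by transcript length and by library size, so levels of different genes may be compared. Sequencing depth and values per sample are unknown. Markers of the labelled tissue were present in every group. None of 15 neuronal or 11 glial genes was listed at 0, and elav, the pan-neuronal RNA-binding protein gene, stood at 97.2 FPKM in control, 109 FPKM under activation and 113 FPKM under ablation. The tables name these groups control, induction and ablation, and induction is called activation here.

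Larval serum proteins are hexamerins, storage proteins that the larval fat body makes in bulk late in larval life and secretes into the haemolymph. Near pupariation, under ecdysone, the fat body takes them back up, and their amino acids feed the building of the adult. The fat body is the fly's counterpart of liver and adipose tissue. It is not a brain tissue, and these genes are best known as fat body genes, so they are of interest here as transcripts measured in dissected brains.

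All 6 genes had their lowest value in activation, an intermediate value in control and their highest value in ablation. Summed over the 6 genes, the table of control and ablation gave 137 FPKM in control and 407 FPKM in ablation, 2.97-fold higher. The table of control and activation gave a control sum of 134 FPKM and an activation sum of 44.7 FPKM, 2.98-fold lower. The table of activation and ablation gave 44.9 FPKM and 399 FPKM, 8.90-fold higher in ablation. Of 9096 genes that reached 1 FPKM in any group, 725 genes (7.97%) had this order of the groups. In bulk brain RNA, fewer cells of a type and less RNA per cell cannot be told apart.

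The Lsp1 hexamer is built from alpha, beta and gamma subunits, each encoded by its own gene on a different chromosome arm. Lsp1alpha lies on X from 12384416 to 12386933 (build dm3, counted from 1), and in the BDGP6 annotation its RA transcript has 2 exons on the plus strand. Its level was 16.5 FPKM in control, 5.09 FPKM under activation and 55.5 FPKM under ablation. It was the fifth of the 6 genes in every group.

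Lsp1beta lies on 2L from 898647 to 901320 and has 2 exons on the plus strand. Its level was 36.2 FPKM in control, 8.71 FPKM under activation and 72.6 FPKM under ablation. This was the highest of the 6 genes in control and the third in both other groups. Lsp1gamma lies on 3L from 66439 to 69003 and also has 2 exons on the plus strand. Its level was 20.8 FPKM in control, 11.6 FPKM under activation and 87.1 FPKM under ablation. It was the third of the 6 genes in control and the highest in activation and in ablation.

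Lsp2, which forms a hexamer of its own, lies on 3L from 12122493 to 12124798 and has 1 exon on the plus strand. Its level was 33.0 FPKM in control, 6.11 FPKM under activation and 63.9 FPKM under ablation. It stood close behind Lsp1beta in control and was the fourth of the 6 in the other groups.

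Fbp1, the receptor through which the fat body takes larval serum proteins back up, lies on 3L from 14087686 to 14091156 on the minus strand with 2 exons. Its gene sum was 17.2 FPKM in control, 3.66 FPKM under activation and 49.4 FPKM under ablation. It was the lowest of the 6 genes in activation and in ablation. The sum rested on its RA transcript, since RB stayed at or below 0.000927 FPKM in every table and was not tested.

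Fbp2, a fat body protein of the short-chain dehydrogenase family to which alcohol dehydrogenase belongs, lies on 2L from 9426860 to 9427836 on the plus strand with 2 exons. Its level was 13.3 FPKM in control, 9.53 FPKM under activation and 78.6 FPKM under ablation. It was the lowest of the 6 genes in control and the second in activation and in ablation.

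**Figure D1:**
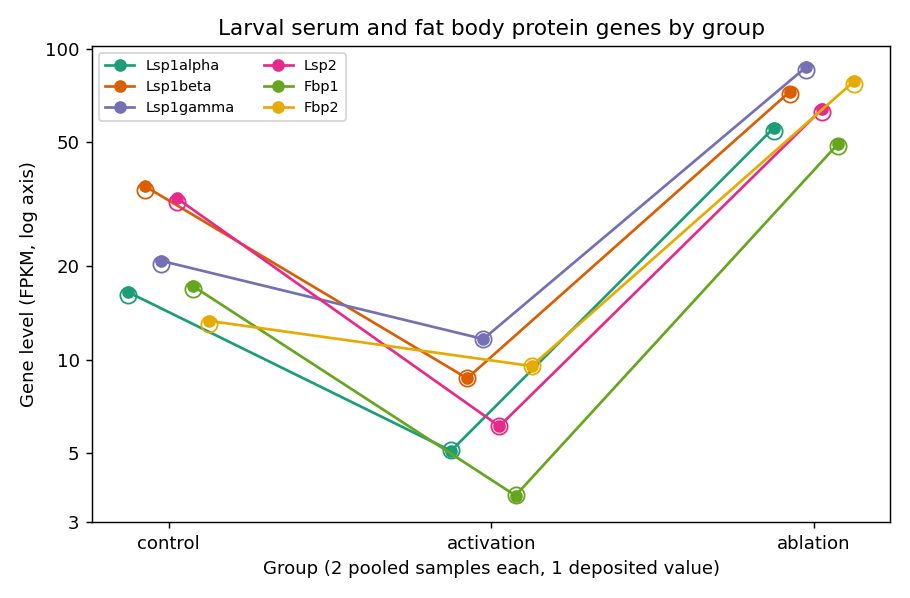
Level of each of the 6 genes in FPKM (log axis) in the 3 groups, with 1 deposited value per group and no replicate error. Filled points joined by lines take control and ablation from their common table and activation from its table with control, open circles give the same group in its other table, and every gene is lowest in activation and highest in ablation.

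Control and ablation levels here come from their shared table and activation levels from its table with control, and the tables were scaled separately. For these genes the other table of the same group gave 0.974 to 0.977 times the control value, 1.002 to 1.004 times the activation value and 0.981 to 0.982 times the ablation value. These shifts are small beside the group differences. The 6 levels spanned a 2.71-fold range in control, 3.19-fold in activation and 1.76-fold in ablation. Among all 14012 genes, Lsp1gamma stood at place 4428 in control, 5853 in activation and 1232 in ablation. Together the 6 genes took up 0.0144% of the summed FPKM in control, 0.00475% in activation and 0.0442% in ablation.

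The comparison of control with ablation asks what differs when E347 cells express dominant-negative shibire. All 6 genes had higher values in ablation, from 1.94-fold for Lsp2 to 5.90-fold for Fbp2. The median log2((FPKM + 1)/(FPKM + 1)) of ablation over control was 1.58 for the 6 genes and 0.11 for the 8803 genes with at least 1 FPKM in either group, of which 56.7% were higher. Cuffdiff called 0 of the 6 at a deposited q of at most 0.05, where 0.0856% of 11676 tested transcripts were called higher and 0.154% in either direction. At an unadjusted deposited p under 0.05 there were 5 of the 6, against 1.31% of tested transcripts that were higher.

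The largest deposited statistic in this comparison was that of Lsp1gamma. It stood at 20.8 FPKM in control and 87.1 FPKM in ablation, a deposited log2 change of 2.07 with a standard error of 0.70 (the authors' deposited table: p = 0.0003, q = 0.140). The standard errors here and below are the deposited log2 change divided by the deposited test statistic. The deposited p-values do not follow from these errors as from a normal score. Lsp1beta, for one, had a statistic of only 1.60 in this comparison (the authors' deposited table: p = 0.0371). The errors are therefore not to be read as those behind the p-values. Fbp2 stood at 13.3 FPKM and 78.6 FPKM, a larger change of 2.56 with a wider standard error of 1.11 (the authors' deposited table: p = 0.0339). Lsp1alpha changed by 1.75 with a standard error of 0.81 (the authors' deposited table: p = 0.0091), and Fbp1 by 1.52 with 0.78 (the authors' deposited table: p = 0.0068).

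Lsp1beta and Lsp2, the highest genes in control, had the smallest changes. Lsp1beta stood at 36.2 FPKM and 72.6 FPKM, a deposited log2 change of 1.01 with a standard error of 0.63 (the authors' deposited table: p = 0.0371). Lsp2 stood at 33.0 FPKM and 63.9 FPKM, a change of 0.95 with a standard error of 0.72 (the authors' deposited table: p = 0.0563). Lsp2 was the member that missed an unadjusted p of 0.05. The deposited q was 0.974 for each gene other than Lsp1gamma.

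The comparison of control with activation asks what differs when E347 cells express the sodium channel. All 6 genes had lower values in activation, from 1.36-fold for Fbp2 to 5.27-fold for Lsp2. Their median log2 change with a pseudocount of 1 was -1.69, against 0.11 for 8771 genes, of which 43.1% were lower. Cuffdiff called 0 of the 6 and 0% of 11809 tested transcripts in either direction. At an unadjusted deposited p under 0.05 there were 3 of the 6, against 1.21% of tested transcripts that were lower.

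These 3 were Lsp1beta, Lsp2 and Fbp1. The control level of Lsp1beta was 35.2 FPKM and its activation level 8.71 FPKM, a deposited log2 change of -2.02 with a standard error of 0.83 (the authors' deposited table: p = 0.0077). Lsp2 stood at 32.2 FPKM and 6.11 FPKM, a change of -2.40 with a standard error of 1.10 (the authors' deposited table: p = 0.0136). Fbp1 RA stood at 16.8 FPKM and 3.65 FPKM, a change of -2.20 with a standard error of 1.17 (the authors' deposited table: p = 0.0250).

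The other genes were closer to control, and 2 of them lay within 1 standard error of no change. Lsp1alpha stood at 16.1 FPKM and 5.09 FPKM, a deposited log2 change of -1.66 with a standard error of 1.14 (the authors' deposited table: p = 0.0767). Lsp1gamma stood at 20.3 FPKM and 11.6 FPKM, a change of -0.80 with a standard error of 0.83 (the authors' deposited table: p = 0.205). Fbp2 stood at 13.0 FPKM and 9.53 FPKM, a change of -0.45 with a standard error of 1.39 (the authors' deposited table: p = 0.738), so its control and activation values are indistinguishable here. The deposited q ran from 0.915 to 0.949 over the 6 genes.

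Activation and ablation were also compared directly, without the control. All 6 genes had higher values in ablation, from 7.32-fold for Lsp1gamma to 13.2-fold for Fbp1. Their median log2 change with a pseudocount of 1 was 3.03, against 0.01 for 9011 genes, of which 51.1% were higher. Cuffdiff called 5 of the 6 as higher in ablation, where 0.25% of 12419 tested transcripts were called higher and 0.37% in either direction. At an unadjusted deposited p under 0.05 there were 6 of the 6, against 1.53% of tested transcripts that were higher. The genes were chosen with the values of all 3 groups known. Nothing is therefore read from these counts, from those in the 2 comparisons with control or from the shared order of the groups.

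Fbp1, the receptor, had the largest change, from an activation level of 3.67 FPKM to an ablation level of 48.5 FPKM, a deposited log2 change of 3.72 with a standard error of 0.73. Lsp1alpha changed by 3.42 with a standard error of 0.67, and Lsp2 by 3.35 with 0.70. Lsp1beta changed by 3.03 with a standard error of 0.57, and Lsp1gamma, from 11.7 FPKM to 85.4 FPKM, by 2.87 with 0.54. Each of these 5 had q = 0.0163 and the smallest p that the authors' deposited table holds, 5e-05.

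Fbp2 was the gene outside the threshold. Its activation level was 9.56 FPKM and its ablation level 77.1 FPKM, a deposited log2 change of 3.01 with a standard error of 0.68 (the authors' deposited table: p = 0.00035, q = 0.0820). Its change was as large as that of Lsp1beta, which passed. By the size of the change with a pseudocount of 1, the 6 genes held places 42 to 61 among the rises of 7581 genes with at least 5 FPKM in either group.

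**Figure D2:**
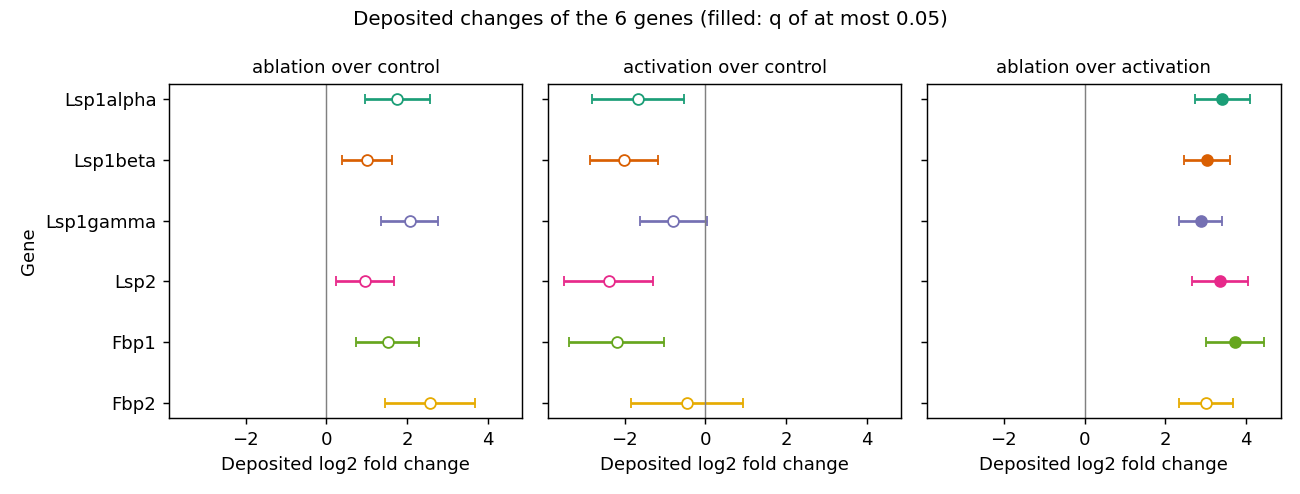
Deposited log2 fold changes of the 6 genes in the 3 comparisons, with bars of 1 standard error taken as the change divided by the deposited statistic; filled points have a deposited q of at most 0.05. The 5 filled points all lie in the panel of ablation over activation, where the 6 values run from 2.87 to 3.72.

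**Figure D3:**
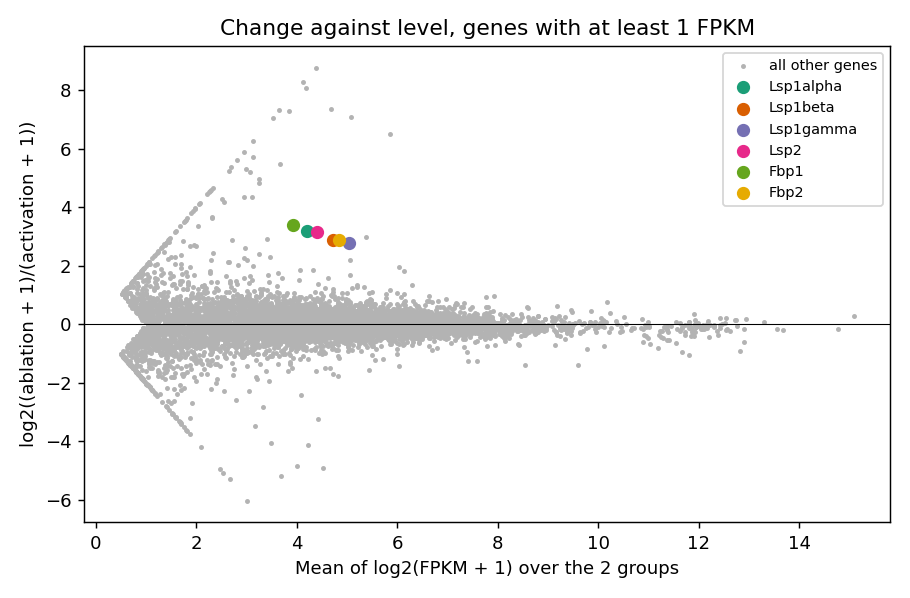
Change from activation to ablation (log2 with a pseudocount of 1) against mean level for 9011 genes with at least 1 FPKM in either group, with the 6 genes in colour. They lie together between 2.77 and 3.41 on the vertical axis, within places 42 to 61 of the rises among genes with at least 5 FPKM.

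The changes of the 6 genes had a smaller spread in activation against ablation than in the comparisons with control. The SD of their deposited log2 changes was 0.32 in activation against ablation, 0.62 in control against ablation and 0.79 in control against activation. These SDs describe 6 genes of the same pools and are no replicate error. The standard errors of single genes rose in the same order, from 0.54 to 0.73, from 0.63 to 1.11 and from 0.83 to 1.39. Whether the genes moved more alike in 1 comparison than in another was not tested. The differences between genes were about as large as their errors. In control against ablation, Fbp2 exceeded Lsp2 by 1.61 on the log2 scale, with a combined standard error of 1.33 if the errors are taken as independent. In control against activation the same pair differed by 1.95 with a combined standard error of 1.77, and in activation against ablation Fbp1 exceeded Lsp1gamma by 0.85 with 0.91.

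The order of the 6 levels in FPKM was the same in activation and in ablation and differed from that in control. From high to low it was Lsp1gamma, Fbp2, Lsp1beta, Lsp2, Lsp1alpha and Fbp1 in both manipulations. In control it was Lsp1beta, Lsp2, Lsp1gamma, Fbp1, Lsp1alpha and Fbp2. Errors of single group values are unknown, so neighbours in these orders cannot be said to differ, and the order was not tested. The shared order was lost when FPKM were multiplied by transcript length. Fbp1 then held 12.4% of the sum in activation, below Lsp2 at 14.0% and Lsp1alpha at 13.3%. In ablation Fbp1 held 17.9%, above Lsp2 at 15.7% and Lsp1alpha at 15.5%. The BDGP6 length used for Lsp1alpha, 2625 bases, is longer than its dm3 locus given above, so its weighted place is uncertain. The change of places between Fbp1 and Lsp2 does not rest on that length.

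As shares of the 6-gene sum, Lsp2 made up 24.1% in control, 13.6% in activation and 15.7% in ablation. Lsp1beta made up 26.4%, 19.5% and 17.8% in the same order. Lsp1gamma went the other way, with 15.2% in control, 26.03% in activation and 21.4% in ablation, and so did Fbp2, with 9.72%, 21.3% and 19.3%. Lsp1alpha kept a share between 11.4% and 13.6%, and Fbp1 one between 8.17% and 12.6%. The 3 Lsp1 subunit genes together held 53.6% in control, 56.9% in activation and 52.9% in ablation.

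**Figure D4:**
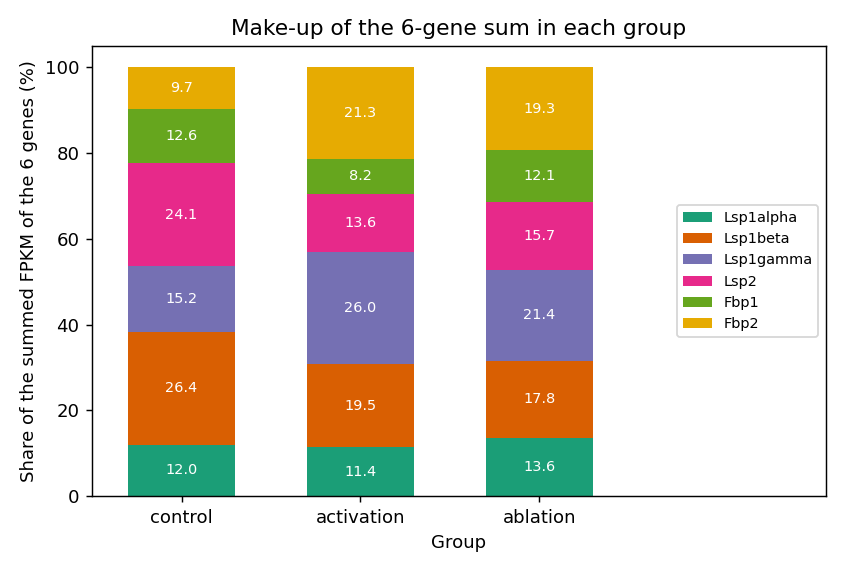
Share of each of the 6 genes in their summed FPKM, in percent, for the 3 groups, with 1 deposited value per group. Lsp1beta and Lsp2 take larger shares in control, and Lsp1gamma and Fbp2 take larger shares in activation and ablation.

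A list of other genes active in the fat body held members that went both ways between activation and ablation. It holds 37 genes other than the 6, among them apolipophorin, lipid droplet, lipid synthesis, sugar storage and secreted protein genes, many of which other tissues use too. Their summed level was 1561 to 1603 FPKM in control, 1517 to 1527 FPKM in activation and 1742 to 1769 FPKM in ablation, as ranges over the tables. In activation against ablation 16 of the 30 genes with at least 1 FPKM were higher in ablation and 14 lower, with a median log2 change of 0.03, beside 3.03 for the 6 genes and 0.01 for all genes. Single members ran from -1.72 for Gbp1, a growth-blocking peptide gene, to 1.95 for Obp99b, an odorant-binding protein gene. In control against ablation 19 of 28 were higher with a median of 0.45, and in control against activation 20 of 31 were higher with a median of 0.13. Cuffdiff called 0 transcripts of this list in any comparison. At an unadjusted p under 0.05 there was 1 of 47 higher in ablation than in control. In the same way 1 of 45 was higher in activation than in control. From activation to ablation 2 of 44 were higher and 1 lower. Of all tested transcripts, 1.31% were higher in ablation than in control and 1.53% higher than in activation. The shares higher in activation than in control and lower in ablation than in activation were not counted. Of 31 genes that reached 1 FPKM in any group, 4 had the order of activation below control below ablation, beside 7.97% of all genes.

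By their highest value in any group, the leading 4 of these genes were Idgf4, Drat, Desat1 and Idgf3. Idgf4, an imaginal disc growth factor of the chitinase-like family, stood at 545 FPKM in control, 437 FPKM under activation and 439 FPKM under ablation. Desat1, a fatty acid desaturase, stood at 191 FPKM, 171 FPKM and 198 FPKM. In both genes the group values lay closer together than in any of the 6. Drat stood at 114 FPKM, 175 FPKM and 208 FPKM, and Idgf3, a relative of Idgf4, at 95.6 FPKM, 73.9 FPKM and 131 FPKM. Desat1 and Idgf3 had the order of activation below control below ablation, and Idgf4 and Drat did not.

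Some genes were chosen after their values were seen. The apolpp gene, which encodes the main lipid carrier apolipophorin made by the fat body, stood at 47.1 FPKM in control, 84.7 FPKM under activation and 82.1 FPKM under ablation, thus higher in both manipulations. The list members Nplp2 and fbp (CG31692, not Fbp1 or Fbp2) were higher in both manipulations and highest in ablation. Nplp2 stood at 0.157 FPKM, 8.79 FPKM and 27.5 FPKM, and fbp at 2.78 FPKM, 5.76 FPKM and 13.3 FPKM. From activation to ablation 16 of 30 list genes were higher and 14 lower. The list members fit, Gnmt, Sardh, AkhR, Gbp2 and Idgf1 stayed below 1 FPKM in every group, and fit was listed at 0 in all. Gnmt and Sardh encode enzymes of glycine methylation and sarcosine breakdown, and AkhR the receptor of adipokinetic hormone. Whether the amount of fat body tissue in the dissected brains differed between the groups was not tested.

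Markers of other tissues differed between the groups in their own ways. Midgut genes, for digestive enzymes and lysozymes, summed to 39.4 to 40.4 FPKM in control, 21.3 to 21.4 FPKM in activation and 1898 to 1935 FPKM in ablation, with 14 of 25 listed at 0 in control. Of their 15 tested transcripts Cuffdiff called 2 as higher in ablation than in control, of Jon74E and PGRP-SC2, and 6 as higher than in activation, of alphaTry, betaTry, epsilonTry, LysB, LysD and PGRP-SC2. Of all tested transcripts, 0.0856% were called higher in ablation than in control and 0.25% higher than in activation. The trypsin and lysozyme genes are close copies of each other, so reads may be split among them. LysD, a gut lysozyme gene, stood at 2.22 FPKM in control, was listed at 0 in activation and stood at 444 FPKM in ablation. At an unadjusted p under 0.05 there were 7 of 15 midgut transcripts higher in ablation than in control, 2 of 6 lower in activation than in control, and 11 of 15 higher in ablation than in activation. The shares of all tested transcripts were 1.31%, 1.21% and 1.53% in the same order. The order of activation below control below ablation was found in 7 of the 16 midgut genes that reached 1 FPKM, against 7.97% of all genes. Midgut genes thus shared the high values in ablation with the 6 genes, and their part in the result was not tested.

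Larval cuticle genes summed to 1540 to 1584 FPKM in control, 243 to 244 FPKM in activation and 487 to 496 FPKM in ablation, so that they were highest in control. Body wall muscle genes summed to 320 to 329 FPKM, 273 to 275 FPKM and 303 to 308 FPKM, and from activation to ablation 14 of 15 were higher, the median log2 change being 0.78. The 1 lower gene, Tm1, had the highest level of the muscle list, at 183 FPKM, 214 FPKM and 186 FPKM. Salivary gland genes summed to 270 to 277 FPKM in control, 181 FPKM in activation and 179 to 182 FPKM in ablation. Behind these sums single genes went different ways, and from activation to ablation 4 of 10 were higher and 6 lower. The gene ng3 stood at 0.205 FPKM, 75.9 FPKM and 1.15 FPKM, and Sgs8 at 184 FPKM, 17.6 FPKM and 60.5 FPKM. Haemocyte genes summed to 230 to 236 FPKM, 211 to 212 FPKM and 235 to 239 FPKM, and none of 18 was listed at 0. Cuffdiff called 0 transcripts of the muscle, salivary gland and haemocyte lists. At an unadjusted p under 0.05, taking ablation over control first, then activation over control, then ablation over activation, there were 0, 0 and 3 of the muscle, 0, 1 and 0 of the salivary gland and 0, 0 and 2 of the haemocyte list. Of the 3 muscle transcripts, out of 23 tested, 2 were higher in ablation and 1 lower. The 2 haemocyte transcripts, out of 18, were higher in ablation. The 1 salivary gland transcript, out of 11, was lower in activation. Of all tested transcripts, 1.53% were higher in ablation than in activation and 1.21% lower in activation than in control. The share lower in ablation than in activation was not counted. Cuffdiff called 1 transcript of the cuticle list, of Cpr49Ac, as lower in ablation than in control, where 0.154% of all tested transcripts were called in either direction. Of the cuticle transcripts tested, 4 of 7 were lower in ablation than in control and 4 of 6 lower in activation than in control at an unadjusted p under 0.05. Of all tested transcripts 1.21% were lower in activation, and the share lower in ablation was not counted. From activation to ablation, 3 of 7 cuticle transcripts were higher and 1 lower at that level, against 1.53% of all tested transcripts that were higher. The order of the 6 genes was found in 3 of 15 muscle, 2 of 11 salivary gland, 2 of 15 haemocyte and 0 of 8 cuticle genes that reached 1 FPKM. Among all genes the share was 7.97%, and nothing is read from such small counts.

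**Figure D5:**
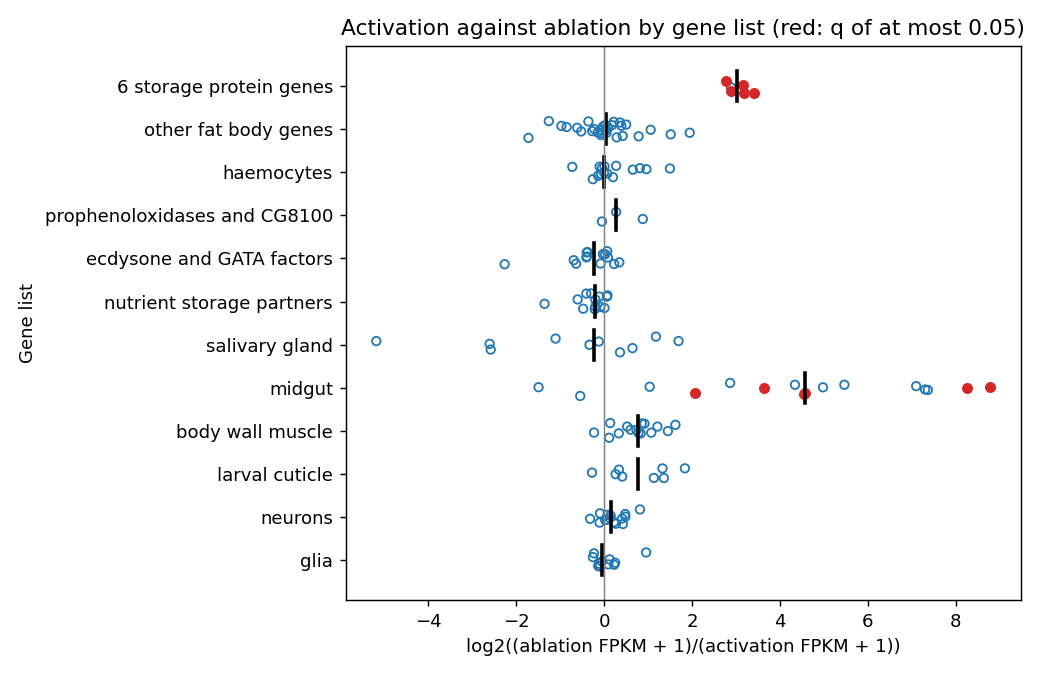
Change from activation to ablation (log2 with a pseudocount of 1) for genes with at least 1 FPKM in either group, by gene list; black bars are medians and red points have a transcript with a deposited q of at most 0.05. The 6 storage protein genes lie between 2.77 and 3.41, other fat body genes are centred at 0.03 and midgut genes at 4.56.

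Relatives of the 6 genes by protein family were measured too. Of those that reached 1 FPKM, 0 of 3 prophenoloxidases and 0 of 1 short-chain dehydrogenase had the order of activation below control below ablation. The share of all genes was 7.97%, so nothing is read from so few. PPO1 and PPO2, prophenoloxidases of crystal cells with the same hemocyanin fold as hexamerins, stood at 10.9 FPKM and 20.7 FPKM in control. In activation they stood at 5.82 FPKM and 9.11 FPKM, and in ablation at 5.71 FPKM and 11.5 FPKM, below control in both. PPO3, the remaining prophenoloxidase, stood at 0.318 FPKM, 0.356 FPKM and 1.52 FPKM, low in every group and highest in ablation. Adh, alcohol dehydrogenase, the relative of Fbp2, stood at 22.9 FPKM, 9.72 FPKM and 9.57 FPKM and was not tested by Cuffdiff. Cuffdiff called 0 transcripts of the prophenoloxidases and CG8100, listed with them, and 0 had an unadjusted p under 0.05.

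Factors that act on these genes were measured as well. Ecdysone acts through the receptor pair EcR and Usp and through early factors such as Broad, and Fbp1 and the Lsp genes are among the fat body genes that respond in late larvae. In the list of 20 ecdysone and GATA factors and targets, 19 were found, and 0 of their transcripts were called in any comparison, with 0, 0 and 3 at an unadjusted p under 0.05. These 3, out of 33 tested, were lower in ablation than in activation. How many of all tested transcripts were lower there was not counted, so no direction is read from these 3. Of 14 genes with at least 1 FPKM, 9 were lower in ablation than in activation and 5 higher, with a median log2 change of -0.23. None of the 14 that reached 1 FPKM had the order of the 6 genes, beside 7.97% of all genes, and nothing is read from so few. The broad gene, br, stood at 124 FPKM in control, 105 FPKM under activation and 114 FPKM under ablation, and usp at 38.1 FPKM, 27.8 FPKM and 36.3 FPKM. Eip75B, an early ecdysone response gene, stood at 48.2 FPKM, 59.8 FPKM and 46.3 FPKM, and crol at 92.5 FPKM, 102 FPKM and 98.5 FPKM. The GATA factor gene of the fat body, srp, was listed at 0 in control and stood at 0.788 FPKM under activation and 0.292 FPKM under ablation, a value picked after it was seen.

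Genes of amino acid sensing, lysosomes and autophagy, through which stored protein is used, had 0 of 13 genes in the order of the 6. Among all genes the share was 7.97%, so nothing is read from so few. Cuffdiff called 0 of their transcripts. In control against ablation 0 of 18 tested transcripts fell below an unadjusted p of 0.05, and in activation against ablation 0 of 17. In control against activation 1 of 18 did, that of Lamp1, which was higher in activation. How common such a rise was among all tested transcripts was not counted, so nothing is read from this 1. Lamp1, a lysosomal membrane protein gene, stood at 195 FPKM in control, 351 FPKM under activation and 258 FPKM under ablation. The protease gene cathD stood at 440 FPKM, 493 FPKM and 440 FPKM, and CtsL1, another lysosomal protease gene, at 281 FPKM, 263 FPKM and 254 FPKM. Atg8a, an autophagosome protein gene, stood at 287 FPKM, 316 FPKM and 325 FPKM.

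The genes whose pattern lay nearest to the 6 were sought by the pair of log2 changes with a pseudocount of 1, activation over control and ablation over control. The median pair of the 6 was -1.69 and 1.58, and 7735 other genes with at least 5 FPKM in any group were compared by Euclidean distance, over 3 group values each. Both changes share the control. The 8 nearest were CG15577, CG12016, Pmi, IM33, Obp99b, TotA, CG2233 and CG42488, at distances from 0.378 to 1.11, while the 6 genes themselves lay 0.235 to 1.56 from their median.

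Obp99b, also an entry of the fat body list, had the highest level, with 78.1 FPKM in control, 32.3 FPKM under activation and 130 FPKM under ablation. IM33, an immune-induced gene, stood at 2.02 FPKM, was listed at 0 in activation and reached 14.7 FPKM in ablation. IM33 was the one gene of the 8 that Cuffdiff called, in activation against ablation (the authors' deposited table: q = 0.0405). Of all tested transcripts there, 0.25% were called higher in ablation and 0.37% in either direction. The 8 were picked by their changes between these groups, so nothing is read from this call. TotA, a secreted stress protein of the Turandot family, stood at 8.19 FPKM, 1.98 FPKM and 12.5 FPKM. The remaining 5 genes ranged from 2.30 to 8.46 FPKM in control and from 5.81 to 17.3 FPKM in ablation.

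The 6 genes lie at separate loci on X, 2L and 3L, and the genes next to them were measured too. Up to 2 genes on each side and 1 overlapping gene were taken, 24 in all, of which 12 reached 1 FPKM in activation or ablation. Of these, 8 were higher in ablation and 4 lower, with a median log2 change of 0.18. The 1 neighbour with a change like that of the 6 from activation to ablation was mthl8, of the methuselah-like receptor family, 40122 bases from Lsp1gamma. It was listed at 0 in control and stood at 0.0137 FPKM under activation and 11.1 FPKM under ablation, so its control value was not intermediate. DEF8, 473 bases from Lsp2, stood at 6.56 FPKM in control, 8.56 FPKM under activation and 10.8 FPKM under ablation, and FucTB, 993 bases from Fbp2, at 4.25 FPKM, 7.21 FPKM and 2.30 FPKM. These neighbours were chosen after their values were seen.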

How the data were processed

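RNA of pooled larval brains was sequenced in 6 samples of 3 groups. Per the submitters' processing notes, TopHat2, Cufflinks and Cuffdiff were used on build dm3, with versions not given in the sources used here, nor the annotation. In each of 3 tables the authors deposited 1 FPKM value per group and transcript, with a log2 fold change, a test statistic (a score), a p-value and a q-value. Depth and values per sample are unknown, so no count test, interval or replicate spread was possible.

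FPKM were summed over the transcripts of a gene. Changes are log2 ratios with a pseudocount of 1, for lists over genes with at least 1 FPKM in either group. Calls are deposited q of at most 0.05. Recomputed Benjamini-Hochberg values differed from the deposited q by at most 5.15e-07, and this step was tested on simulated data.

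The 6 genes and the lists were chosen with earlier results of these data known. Of 193 entries in 12 lists, 189 were found by symbol in the RefSeq table. Named are the 6 genes, called and the 4 most abundant genes of the lists discussed in detail, and the 8 nearest in pattern. Deposited starts count from 0, since end less start equalled the annotated length for 630 of 9598 genes and fell 1 short for 114, so 1 was added. Strands and exons come from the BDGP6 annotation, whose coordinates were not used. Alternatives were other pseudocounts, thresholds, adjustments, centring, transcripts and tables. Software was Python 3.11.15 (matplotlib 3.10.9, pandas 2.3.3, numpy 2.4.6, scipy 1.17.1).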

Additional observations from a re-analysis of the deposited data

How the results depend on the processing

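The count of 5 of the 6 genes called in activation against ablation became 0 at a q threshold of 0.01, since the smallest deposited q there was 0.0163. It was 6 at a threshold of 0.1 and when p was taken from the deposited statistic as a normal score, and 5 with a minimum of 1 FPKM and with adjustment over the 3 tables together. In both comparisons with control the count was 0 under all 5 of these alternatives. Over pseudocounts of 0.1 and 5, centring, the highest transcript alone and values from the other tables, no log2 change of the 6 genes changed sign. Their median ran from 1.39 to 1.63 in ablation over control, from -1.82 to -1.20 in activation over control and from 2.53 to 3.17 in ablation over activation. The fat body list without them ran from 0.34 to 0.55, from 0.03 to 0.15 and from 0.01 to 0.06. Of the single genes, Fbp1 moved by more than its standard error, to 2.63 in ablation over activation with a pseudocount of 5. Weighted by transcript length, an alternative added after the data were seen, the share of Fbp2 was 3.63% in control, 8.70% in activation and 7.66% in ablation, and that of Fbp1 in activation 12.4%. The order of the 6 genes, shared by activation and ablation in FPKM, then differed between them. A median was taken to have moved at a change of 1.5-fold or more. No paired analysis was possible because the tables hold 1 value per group, and for the same reason leaving out a replicate was not run. The depth behind the values is unknown.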
